A study of Homo sapiens with 6 samples.

Results

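Peaks of SON and HMGB2 were read at 10 target genes of the transcription factor p53: CDKN1A, MDM2, BTG2, GDF15, RRM2B, ZMAT3, SESN1, TP53I3, DDB2 and XPC. The genes were taken by name, and a peak belonged to a gene when it lay in the gene's RefSeq span (GRCh38.p14) or within 5 kb of it. The 10 genes are among 19974 protein-coding genes on chromosomes 1 to 22 and X, and 33 peaks of the 4 lists met them. The cells were IMR90, an established line of human embryonic lung fibroblasts, and chromatin was profiled by ChIPmentation, in which a transposase adds sequencing adapters to antibody-bound chromatin on the beads. HMGB2 was mapped without treatment. SON was mapped without treatment, at 3 days and at 6 days under ICM, a treatment whose short name the labels leave unexplained. Each of these 4 groups had 1 list, so no difference between groups was tested. SON cells were fixed with formaldehyde and HMGB2 cells with EGS and then formaldehyde, so target and fixation cannot be told apart.

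p53 is stabilised by DNA damage and other stress and switches on genes that stop the cell cycle, repair DNA, adjust metabolism or kill the cell. Among them CDKN1A, whose product p21 inhibits cyclin-dependent kinases, is a main effector of senescent arrest, and MDM2 encodes the ubiquitin ligase that returns p53 to a low level. SON is a scaffold protein of nuclear speckles, bodies rich in splicing factors that lie close to active genes, and HMGB2 is an abundant DNA-bending protein whose level is known to fall when fibroblasts become senescent.

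The lists differed in length, with 22362 SON peaks in untreated cells, 11158 at 3 days, 5583 at 6 days and 6013 HMGB2 peaks. They hold no read counts, so depth is unknown, and a gene without a peak is one with no peak above the authors' threshold. The authors' −log10 p of a SON peak is the lower of the values of 2 replicates. The irreproducible discovery rate (IDR) is computed from the rankings of both and is low for peaks that rank high in both. Equal values alone do not make it low: the 3-day BTG2 peak had 5.26 in both replicates and an IDR of 0.447. Of the 8 fibroblast marker genes examined, 6 had a SON peak without treatment, 3 one at 3 days, 1 one at 6 days and 4 an HMGB2 peak. Of 10 markers of epithelium, endothelium and blood the counts were 4, 2, 0 and 0. Over all protein-coding genes the shares were 57.1%, 41%, 21.5% and 23.3%. A peak is no measure of expression.

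A SON peak in untreated cells was present at 6 of the 10 p53 targets: CDKN1A, MDM2, RRM2B, SESN1, TP53I3 and XPC. At 3 days 8 had one, the same 6 with BTG2 and ZMAT3 added, and at 6 days 4 had one, RRM2B, SESN1, TP53I3 and XPC. HMGB2 peaks were present at 5: CDKN1A, RRM2B, SESN1, TP53I3 and DDB2. GDF15, which encodes a secreted stress cytokine, had no peak in any of the 4 lists. Exact binomial (Clopper-Pearson) 95% intervals ran from 26.2 to 87.8% for untreated SON, 44.4 to 97.5% at 3 days, 12.2 to 73.8% at 6 days and 18.7 to 81.3% for HMGB2. They cover counting error only and treat the genes as independent draws, although the 10 were chosen by name. They are no test between groups.

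Over all protein-coding genes, 57.1% carried an untreated SON peak, 41% a 3-day one, 21.5% a 6-day one and 23.3% an HMGB2 peak under the same rule. Among the 15062 genes whose spans lie in the range of the p53 targets, 3019 to 110538 bp, these shares were 57.9%, 41.5%, 20.8% and 23.5%. The untreated count of 6 of 10 is near this background. BTG2 and ZMAT3 entered at 3 days with peaks at the largest IDR of that list. Such peaks are common: the largest IDR of its list was given to 32.6% of the untreated SON peaks, 31.9% of the 3-day ones and 39.0% of the 6-day ones. With every list reduced to the length of the shortest, 5 targets had a SON peak in untreated cells and 5 at 3 days, where 26.3% and 27.2% of all protein-coding genes had one. With the stronger 50% of each list kept, 5, 5 and 2 targets had a SON peak and 4 an HMGB2 peak, beside 40.9%, 27.2%, 12.7% and 13.7% of all genes.

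**Figure D1:**
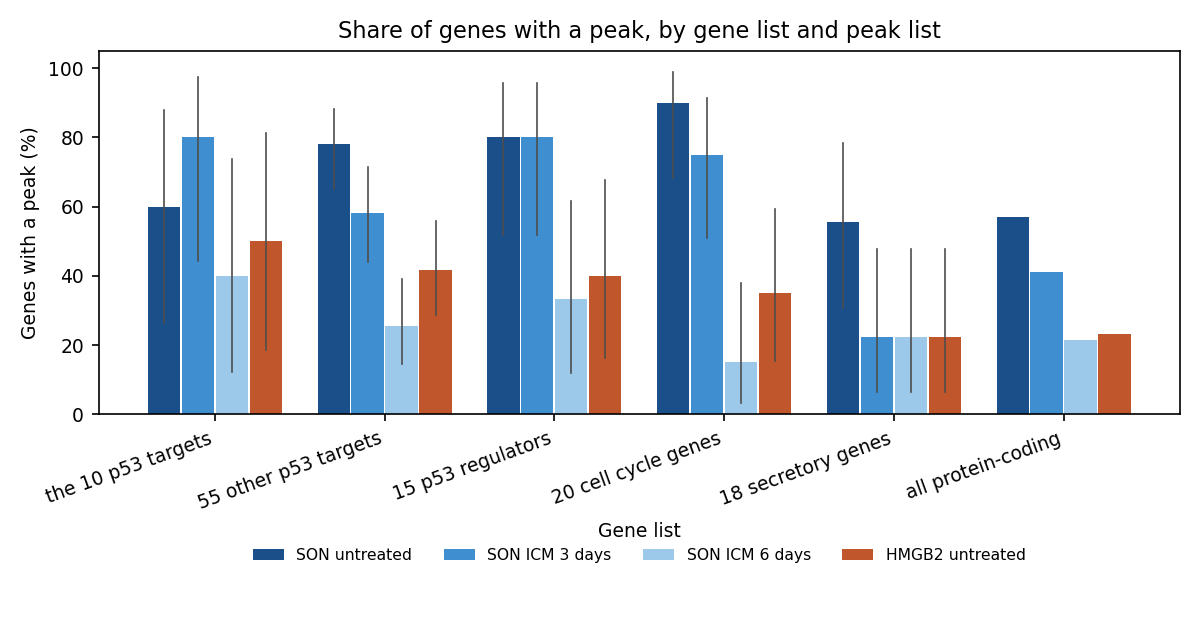
Bars give the percentage of genes of each list that had a peak in the gene span or within 5 kb, for the 4 peak lists. Thin lines are exact 95% binomial intervals (none for all protein-coding genes), which treat genes as independent draws although the genes were chosen by name. The 10 p53 targets stand at 60%, 80% and 40% for SON (untreated, 3 days, 6 days) and at 50% for HMGB2, with wide intervals.

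The combination of lists varied from gene to gene. RRM2B, SESN1 and TP53I3 had a peak in all 4 lists, a combination found at 10.6% of protein-coding genes. XPC had one in the 3 SON lists and not in the HMGB2 list (9.66%), CDKN1A in untreated SON, 3-day SON and HMGB2 (7.12%), and MDM2 in untreated and 3-day SON (12.7%). BTG2 and ZMAT3 had a peak in the 3-day SON list alone, as did 0.736% of protein-coding genes, and DDB2 in the HMGB2 list alone (1.52%). GDF15 shares its lack of any peak with 40.3% of the genes.

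**Figure D2:**
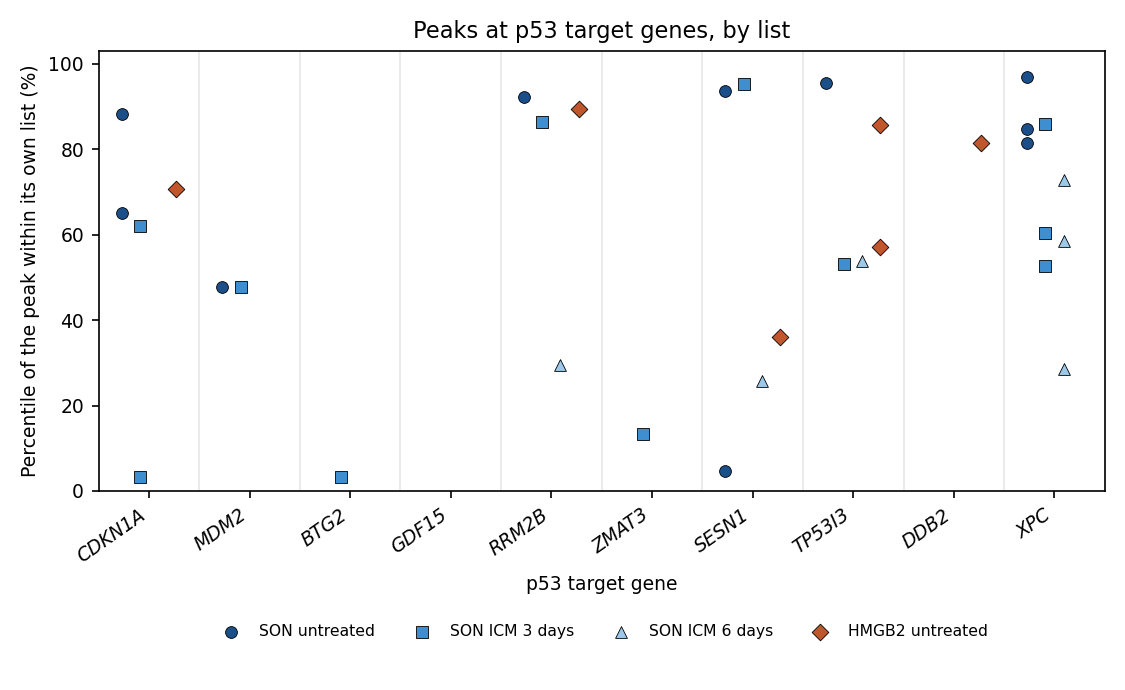
Each point is 1 peak at a p53 target, placed by the percentile of its −log10 p within its own list (100% is the strongest). The strongest untreated SON peaks of RRM2B, SESN1, TP53I3 and XPC lie above 92%, the MDM2 peaks lie near the middle of both lists, and GDF15 is empty.

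The 200 bases upstream of the gene start are shown for the 5 p53 targets with a SON peak there, because these stretches are what the SON peaks at gene starts cover. Sequences are from RefSeq (GRCh38.p14), 5′ to 3′ on the strand of the gene, and capitals mark a GC box (GGGCGG, either strand) or a CCAAT box (CCAAT, either strand).
CDKN1A, chr6:36678514-36678713, plus strand: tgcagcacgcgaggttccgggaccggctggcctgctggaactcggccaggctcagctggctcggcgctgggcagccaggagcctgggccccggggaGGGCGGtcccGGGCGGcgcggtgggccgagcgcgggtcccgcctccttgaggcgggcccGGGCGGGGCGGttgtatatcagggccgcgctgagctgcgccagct
MDM2, chr12:68807972-68808171, plus strand: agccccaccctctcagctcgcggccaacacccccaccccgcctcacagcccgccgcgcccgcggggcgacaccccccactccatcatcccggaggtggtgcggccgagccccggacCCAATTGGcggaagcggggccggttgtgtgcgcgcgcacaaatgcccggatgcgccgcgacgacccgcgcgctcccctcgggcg
BTG2, chr1:203305319-203305518, plus strand: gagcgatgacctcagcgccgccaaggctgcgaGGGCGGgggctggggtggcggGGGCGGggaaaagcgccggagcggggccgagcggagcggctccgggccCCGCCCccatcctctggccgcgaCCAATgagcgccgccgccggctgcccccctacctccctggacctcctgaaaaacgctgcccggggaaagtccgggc
SESN1, chr6:109094847-109095046, minus strand: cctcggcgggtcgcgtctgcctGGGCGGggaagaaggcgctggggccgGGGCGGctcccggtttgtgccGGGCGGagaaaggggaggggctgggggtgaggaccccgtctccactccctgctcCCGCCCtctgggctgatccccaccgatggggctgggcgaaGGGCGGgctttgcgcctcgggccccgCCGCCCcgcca
XPC, chr3:14178602-14178801, minus strand: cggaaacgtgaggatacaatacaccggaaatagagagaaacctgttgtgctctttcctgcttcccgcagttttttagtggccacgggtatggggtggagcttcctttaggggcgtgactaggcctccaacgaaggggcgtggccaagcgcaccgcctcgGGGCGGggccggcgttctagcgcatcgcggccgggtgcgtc

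All 200 bases lay in the untreated SON peak of CDKN1A, MDM2, SESN1 and XPC and in the 3-day peak of all 5 genes. The 6-day list covered the 200 bases of SESN1 and of XPC, and none of the other 3. The HMGB2 peak took in all 200 bases of CDKN1A and 116 bases of SESN1. A GC box, the site of Sp1-type factors, occurred 4 times at CDKN1A, with the pair nearest the start sharing a base, and 6 times at SESN1. It occurred 3 times at BTG2, once at XPC and not at MDM2. MDM2 had a pair of overlapping CCAAT boxes on opposite strands, and BTG2 had 1 CCAAT box. A TATA box (TATAAA), the letters AGGGGGC from the core of the CTCF motif and the p53 half-site consensus, each searched on both strands, had no match in these 5 stretches. Sequence outside the 200 bases was not searched, so p53 sites elsewhere at these genes would not be seen here.

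Of 15812 protein-coding promoters of the same length, 53.4% held a GC box, 30.5% a CCAAT box, 7.60% a TATA box, 14.9% AGGGGGC and 3.86% the p53 half-site. Among the promoters met by an untreated SON peak the GC box was in 67.0%, the CCAAT box in 39.0% and the TATA box in 3.32%. GC content was 77.5% at CDKN1A, 77.0% at SESN1, 76.5% at MDM2 and BTG2 and 61.5% at XPC. The median was 63.5% over all these promoters and 66.0% over those met by an untreated SON peak. The 4 other p53 targets in the promoter table had no peak over these bases: ZMAT3 with a GC content of 76.5%, GDF15 with 60.5%, DDB2 with 58.0% and TP53I3 with 52.0%. GDF15 was the 1 gene of these 9 with the exact letters TATAAA, 24 bases before the start. Variant forms of the TATA box were not searched.

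Of the genes of cell cycle arrest, CDKN1A (chromosome 6, 36676463 to 36687332, plus strand) had 2 SON peaks in untreated cells. One, from 36678371 to 36678735, covered the gene start at 36678714 and that of DINOL, a lncRNA transcribed the other way from 155 bp upstream. Its −log10 p was 12.7, with an IDR of 0.00981. The other, from 36680088 to 36680763, had its summit 1764 bp into the gene and was the stronger, with a −log10 p of 23.6 at percentile 88.3. Both were found at 3 days, where the peak at the start had a −log10 p of 10.6 (10.6 and 21.2 in the 2 replicates) and the inner one 5.27 (5.27 and 9.48) at an IDR of 0.447, the largest in that list. The order of the 2 peaks was thus the reverse of that in untreated cells. Neither was in the 6-day list. HMGB2 had 1 peak at CDKN1A, from 36678391 to 36678736, with a fold enrichment of 5.40 and a −log10 p of 11.97, and it overlapped the SON peak at the start.

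BTG2 (chromosome 1, 203305519 to 203309602, plus strand) encodes an antiproliferative adaptor of mRNA deadenylation. Its one peak, SON at 3 days from 203305236 to 203305518, ended 1 bp before the gene start and covered the start of the divergent lncRNA BTG2-DT, 194 bp away. With a −log10 p of 5.26 it ranked 10786 of 11158, and its IDR was 0.447.

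The feedback gene MDM2 (chromosome 12, 68808172 to 68850686, plus strand) had 1 SON peak over its start in untreated cells, from 68807888 to 68808246, and 1 at 3 days, from 68807910 to 68808254. Their −log10 p was 9.59 and 8.88, the same in both replicates of each list, and both stood near the middle of their lists, at percentiles 47.7 and 47.8. The IDR was 0.0148 in untreated cells and 0.0725 at 3 days. The first intron of MDM2 holds the promoter through which p53 is known to act, and no list had a peak inside the gene span away from the start. Neither the 6-day SON list nor the HMGB2 list had a peak at MDM2.

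Among the DNA repair genes, XPC (chromosome 3, 14145147 to 14178601, minus strand) encodes the damage sensor of global genome nucleotide excision repair and had 3 SON peaks in each SON list. The peak at its start ran from 14178288 to 14179024 in untreated cells and had the highest −log10 p of all untreated SON peaks at the p53 targets, 42.5 at percentile 96.8. At 3 days the −log10 p was 18.6, and at 6 days 10.6 (13.8 and 10.6 in the 2 replicates). The 3 peaks also covered the start of LSM3, a component of the U6 snRNP transcribed the other way from 216 bp upstream. The other 2 peaks of each list lay beyond the transcript end of XPC, between it and TMEM43, and in untreated cells they ran from 14143770 to 14144164 and from 14144481 to 14144980. Their −log10 p was 20.5 and 18.6 in untreated cells, 9.40 and 10.3 at 3 days and 7.29 and 9.19 at 6 days. XPC had no HMGB2 peak.

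DDB2, whose product binds ultraviolet lesions ahead of XPC, differed from it in every list. DDB2 (chromosome 11, 47214454 to 47239217, plus strand) had no SON peak and 1 HMGB2 peak, from 47216320 to 47216527, with the summit 2016 bp inside the gene. Its fold enrichment of 7.94 was the highest of the 6 HMGB2 peaks at the p53 targets, with a −log10 p of 14.05. RRM2B, the p53-inducible small subunit of ribonucleotide reductase (chromosome 8, 102204501 to 102238961), had 1 peak in each of the 4 lists. In untreated cells the SON peak ran from 102238654 to 102239795 over one end of the gene, and no strand is given for RRM2B here. Its −log10 p was 28.5 in untreated cells, 18.998 at 3 days (18.998 and 39.3 in the replicates) and 7.33 at 6 days (7.33 and 8.19), the last at the largest IDR of its list, 0.63. The HMGB2 peak at the same place, from 102238770 to 102239641, had a fold enrichment of 4.76 and a −log10 p of 16.9, the highest among the p53 targets.

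Of the metabolic and stress genes, SESN1 (chromosome 6, 108984309 to 109094846, minus strand) encodes a sestrin that restrains mTORC1. Its start was covered in all 4 lists. The SON peak ran from 109094746 to 109095608 without treatment, where its −log10 p was 31.3. The 3-day peak was the strongest in that list of any p53 target, with a −log10 p of 38.3 (38.3 and 75.1 in the replicates), rank 522 of 11158 and an IDR of 0.000241. At 6 days the value was 7.14 (7.14 and 17.5) at an IDR of 0.385. The 3 SON peaks also covered the start of CEP57L1, transcribed the other way from 317 bp upstream. The HMGB2 peak was narrower, from 109094785 to 109094962, covered the SESN1 start and not that of CEP57L1, and had a fold enrichment of 4.54. A second untreated SON peak, 21.3 kb inside the gene, had a −log10 p of 5.38 and an IDR of 0.431, and was in no other list.

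TP53I3 (chromosome 2, 24077433 to 24084834, minus strand), which encodes an oxidoreductase tied to reactive oxygen species, had SON peaks only outside its span. In untreated cells the peak ran from 24076152 to 24076616, 817 bp beyond the TP53I3 transcript end, and covered the start of SF3B6, a subunit of the SF3b complex of the spliceosome. The −log10 p there was 36.4 without treatment, 9.46 at 3 days and 8.83 at 6 days (8.83 and 10.98 in the replicates). An HMGB2 peak lay at the same place, from 24076277 to 24076564, with a fold enrichment of 5.57 and a −log10 p of 15.4. The one peak within TP53I3 itself was of HMGB2, from 24083878 to 24084099, 834 bp inside the gene start, where the span of FAM228B also runs. Its fold enrichment was 5.27 and its −log10 p 10.3.

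ZMAT3 (chromosome 3, 179017223 to 179072513, minus strand) encodes a zinc finger protein that binds RNA. It had 1 SON peak, at 3 days, from 179063952 to 179064233 and 7765 bp inside the gene, with a −log10 p of 6.32 and an IDR of 0.447. GDF15 (chromosome 19, 18386158 to 18389176, plus strand) had no peak within 5 kb. The nearest beyond it was an untreated SON peak 5.52 kb from the span, with a −log10 p of 6.08 at percentile 10.7. DDB2 had 2 untreated SON peaks at 9.32 and 9.59 kb from its span, with values of 4.99 and 6.31, and CDKN1A had 1 at 9.11 kb, with 7.53. All 4 had an IDR of 0.431, the largest in the untreated list. No peak lay close to the 5 kb limit on its inner side. The farthest from a span was a 6-day SON peak 1063 bp from XPC, with a −log10 p of 7.29.

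**Figure D3:**
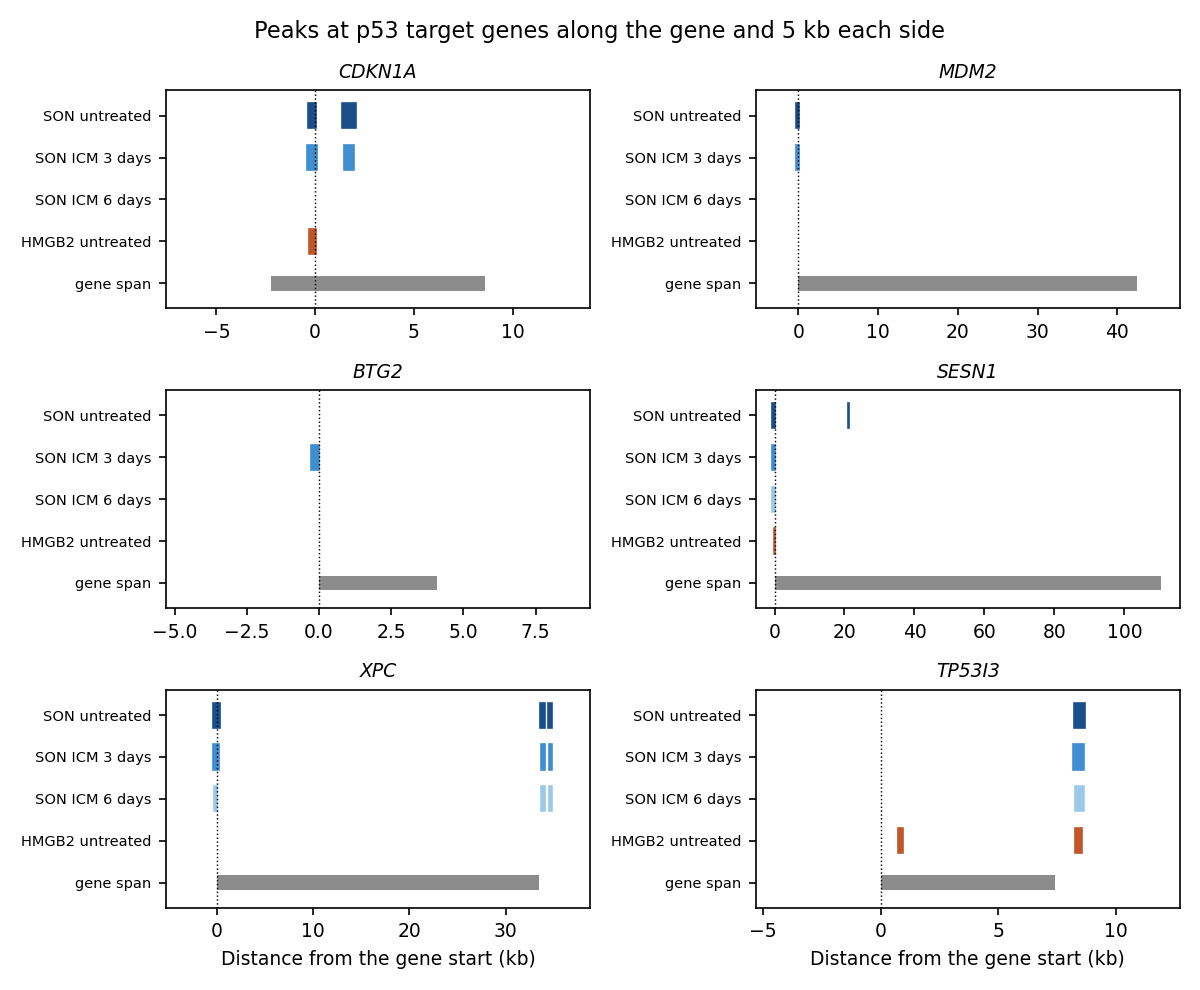
Peaks of the 4 lists along 6 p53 targets, by distance from the gene start in kb (positive into the gene), with the gene span in grey, the scale set for each gene and peaks drawn with a thin outline. CDKN1A, MDM2, BTG2, SESN1 and XPC have a peak at the start, while 2 of the 3 peaks of XPC in each SON list and the SON peaks of TP53I3 lie past the far end of the gene.

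At 3 of the 4 p53 targets with a SON peak at 6 days, SESN1, XPC and TP53I3, that peak covered the start of another protein-coding gene (CEP57L1, LSM3 and SF3B6). The peaks over the starts of CDKN1A and MDM2, absent at 6 days, covered no second protein-coding start. This was read from the data after the values were seen. Without treatment the peaks at these places differed in strength, at percentiles 93.6 (SESN1), 96.8 (XPC) and 95.4 (TP53I3) beside 65.1 (CDKN1A) and 47.7 (MDM2). RRM2B, with no second protein-coding start under its peak, stood at 92.2. Whether peak strength or a second start goes with presence at 6 days was not tested. Over all protein-coding genes with a start in the promoter table, those with a divergent protein-coding start within 1 kb numbered 1630. A SON peak lay within 1 kb of their start in 79.7% without treatment, in 58.7% at 3 days and in 27.6% at 6 days, and an HMGB2 peak in 29.7%. For the other 14182 genes these shares were 36.6%, 25.6%, 10.2% and 13.5%. The divergent class holds SESN1 and XPC but not TP53I3, since SF3B6 is on the same strand as TP53I3 and starts 8508 bp from its start. SF3B6 itself has a divergent coding start within 1 kb. It starts at 24076326 on the minus strand, and FAM228B starts at 24076833 on the plus strand. The SON peaks beside TP53I3 covered the start of SF3B6 and not that of FAM228B. When a peak was given only to its nearest protein-coding gene, TP53I3 lost its SON peaks and 5, 7 and 3 p53 targets kept one. The share of all protein-coding genes under that rule is not given here, so these counts have no background beside them.

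Of the 10 untreated SON peaks at the p53 targets, 9 overlapped a 3-day peak by at least 1 bp, and 6 a 6-day peak. The peak missing at 3 days was the weak one inside SESN1, and those missing at 6 days were this peak, both of CDKN1A and that of MDM2. Over all 22216 untreated peaks on these chromosomes the shares found were 45.4% and 21.9%. For the strongest untreated peak of each gene that had one, the median percentile was 92.9 at the p53 targets and 71.9 over all protein-coding genes. In the treated lists the values were 57.6 beside 66.2 at 3 days and 41.7 beside 59.3 at 6 days, and for HMGB2 81.5 and 59.7. The SON medians are over different targets, 6 without treatment, 8 at 3 days and 4 at 6 days. The 8 include BTG2 at percentile 3.32 and ZMAT3 at 13.3, while the other 6 ranged from 47.8 (MDM2) to 95.3 (SESN1). Ranked by 1 replicate at a time, the 6-day median of the targets was 29.0 or 63.4. In the strength deciles that the 10 peaks fall in, untreated peaks were found at 3 days in 75.2% on average and at 6 days in 47.3%. All 6 of the 6-day peaks and 9 of the 11 peaks at 3 days overlapped an untreated peak, and the 2 others were those of BTG2 and ZMAT3.

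Of the 6 HMGB2 peaks, 4 overlapped an untreated SON peak, at CDKN1A, RRM2B, SESN1 and the SF3B6 start beside TP53I3. This is 66.7%, where 62.3% of all HMGB2 peaks overlapped one. The HMGB2 peaks inside TP53I3 and DDB2 met no SON peak of any list. At MDM2 and XPC the SON peaks had no HMGB2 peak beside them.

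The IDR of the SON peaks differed between lists. The global IDR stayed at or under 0.05 for 9 of the 10 untreated peaks, 5 of the 11 at 3 days and 0 of the 6 at 6 days. By gene this left 6, 4 and 0 of the p53 targets, where 45%, 24% and 5.02% of protein-coding genes kept a peak. The 4 targets left at 3 days were CDKN1A, RRM2B, SESN1 and XPC, and the lowest IDR at 6 days was 0.126, at the XPC start. The 2 replicates gave the same −log10 p at 9 of the 10 untreated peaks, at 7 of 11 at 3 days and at none of 6 at 6 days. Over the whole lists 55.9%, 29.0% and 9.49% of lines had equal values. How the replicates were made is not given in the sources used here, and whether they are independent was not tested. The IDR counts are therefore not read as a difference in precision between lists.

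**Figure D4:**
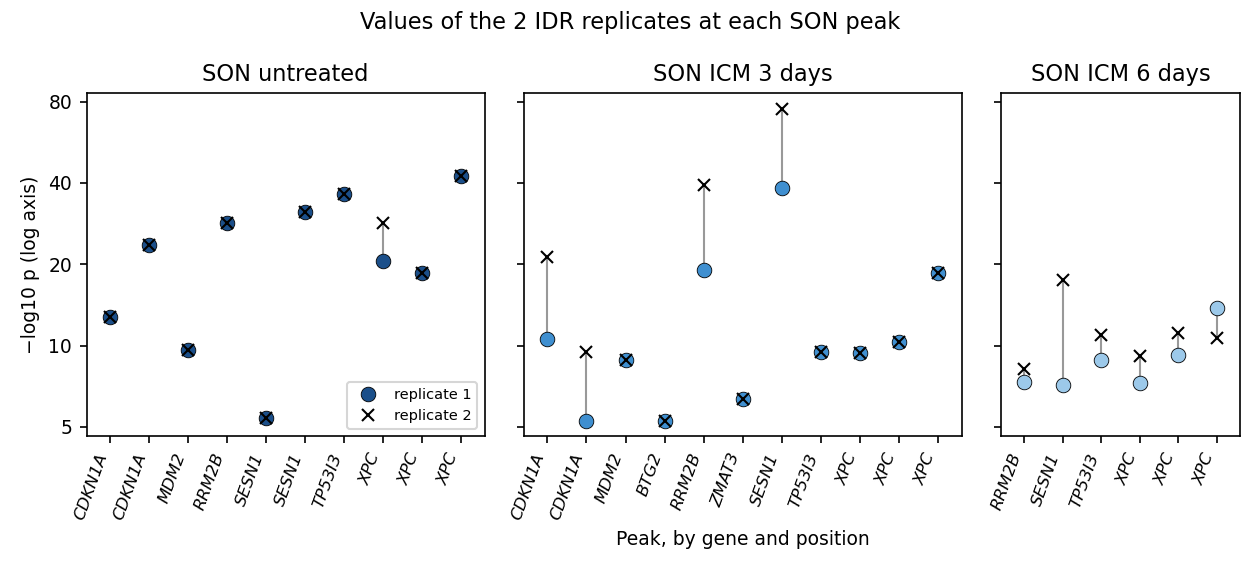
The −log10 p of replicate 1 (circle) and replicate 2 (cross) at each SON peak of the p53 targets, on a log axis, with a line joining the pair and the 3 lists side by side. The pairs coincide at 9 of 10 untreated peaks, and the widest gaps are at SESN1 at 6 days and at RRM2B, CDKN1A and SESN1 at 3 days.

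By the percentile of the strongest peak in each of the 4 lists (0 where none), the genes most like CDKN1A were GXYLT2, CAVIN1 and KIF23, at distances of 4.21, 4.87 and 5.18 percentile points, and none shares a peak with it. For MDM2 they were LOXL1, LANCL2 and POMGNT2, at 1.472, 2.174 and 2.668. The likeness is over 4 lists only.

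Beyond the 10, a list of 55 other p53 targets was read, written with earlier results of these data known. Of these, 43 had an untreated SON peak (78.2%), 32 a 3-day peak (58.2%), 14 a 6-day peak (25.5%) and 23 had an HMGB2 peak (41.8%). The background was 57.1%, 41%, 21.5% and 23.3%. The strongest untreated peak of each of the 43 had a median percentile of 69.8, beside 71.9 over all genes with a peak. At an IDR of at most 0.05 the SON counts were 30, 18 and 0 of 55, where 45%, 24% and 5.02% of all protein-coding genes kept a peak. With the stronger 50% of each list the counts were 30, 21 and 5 for SON and 9 for HMGB2, beside 40.9%, 27.2%, 12.7% and 13.7% of all genes.

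By role, 12 of 16 arrest and signalling genes had an untreated SON peak, 13 of 19 apoptosis genes, 7 of 7 repair genes and 11 of 13 genes of metabolism and autophagy. At 6 days the counts were 5, 1, 4 and 4. The shares of all protein-coding genes were 57.1% for untreated SON, 21.5% at 6 days and 23.3% for HMGB2. Median spans were 6.21, 27.6, 184.7 and 23.1 kb in the same order of roles, and 24.2 kb for all genes. HMGB2 peaks were at 12 of the 16 arrest genes, 6 of the 19 apoptosis genes, 3 of the 7 repair genes and 2 of the 13 metabolic genes. Among these, BTG1, a relative of BTG2, had 3 untreated SON peaks with a highest −log10 p of 40.4, 2 at 3 days with 27.7, none at 6 days and an HMGB2 peak with 18.9. SERTAD1, a regulator of cyclin-dependent kinase 4, had an untreated SON peak with a −log10 p of 33.7 and 1 at 3 days with 18.6, and an HMGB2 peak with 22.2. BAX, the pore-forming apoptosis protein, had the strongest HMGB2 peak of these genes, with a −log10 p of 40.2, and 4 HMGB2 peaks in all. The repair polymerase gene POLH had SON peaks with a −log10 p of 22.9, 42.6 and 6.37 in the 3 SON lists, and SCO2, needed to assemble cytochrome c oxidase, had 31.2, 28.4 and 12.5.

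Of 15 genes for p53 itself and its regulators, 12 had an untreated SON peak, 12 a 3-day peak, 5 a 6-day peak and 6 an HMGB2 peak. These are 80%, 80%, 33.3% and 40%, beside 57.1%, 41%, 21.5% and 23.3% of all protein-coding genes, and the median span of the 15 genes was 71.8 kb and that of all genes 24.2 kb. CREBBP, a histone acetyltransferase and p53 coactivator, had the strongest untreated SON peak of all these 70 genes, with a −log10 p of 70.9, followed by 35.6 at 3 days and 13.5 at 6 days. Of the 70, 12 had no peak in any list, where 40.3% of all protein-coding genes had none. A peak in all 4 lists was found at 10 of the 70, and at 10.6% of all protein-coding genes. These 10 were CCNG1, PLK3, SESN2, PPM1D, PCNA, FANCC, ATM, CHEK2, TP53BP1 and MDC1. ATM, the kinase that signals DNA breaks to p53, stood highest among them at 6 days, with a −log10 p of 40.01, 38.99 and 14.6 in the 3 SON lists and 10.7 for HMGB2. PPM1D, the phosphatase that turns p53 signalling off, had 42.5, 6.83 and 8.14 for SON and 9.43 for HMGB2. SESN2, the paralog of SESN1, had 39.6, 15.5 and 7.13 for SON and 6.85 for HMGB2.

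Beside these, 18 of 20 cell cycle genes had an untreated SON peak, 15 had one at 3 days and 3 at 6 days, and 7 had an HMGB2 peak, or 90%, 75%, 15% and 35%. Of 18 genes of the senescent secretory phenotype, 10 had an untreated SON peak, 4 one at 3 days and 4 at 6 days, and 4 had an HMGB2 peak, or 55.6% and 3 times 22.2%. The 10 p53 targets stood at 60%, 80%, 40% and 50%, and all protein-coding genes at 57.1%, 41%, 21.5% and 23.3%. The median span was 19.7 kb for the cell cycle genes, 8.03 kb for the secretory genes, 29.1 kb for the 10 p53 targets and 24.2 kb for all genes. The differences between these lists were not tested, since genes are not replicates of a condition.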

How the data were processed

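The series has 6 ChIPmentation samples, and 4 of them, 1 per group by title and treatment label, gave a peak list. The HMGB2 input and the sample titled with DSG were not used here. Per the submitters' processing notes the build was hg38, and bcl2fastq 2.17, Bowtie2, deepTools and MACS2 were used, with no roles given. The deposited SON lists have the 20-column layout of the IDR procedure on 2 replicates. In them the −log10 p was checked to be the lower of both replicates, the score is the scaled global IDR, and columns 7 and 9 hold no values. The deposited HMGB2 list has 10 columns with the authors' fold enrichment ratio, −log10 p, −log10 q and a score, and its peak names state a q cutoff of 0.03. Depth and the control are not given in the sources used here.

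Gene spans came from RefSeq (GRCh38.p14). All 10 p53 targets matched; 9 had a start and strand in the promoter table. Percentiles and ranks are of the −log10 p within a list of all its lines. They give the place of a peak in its own list and do not measure a difference in binding between lists. The search for the genes most like CDKN1A and MDM2 combined the percentiles of the 4 lists. Peaks of 2 lists were shared with 1 bp of overlap. No test between groups was possible with 1 list each. The genes and lists were chosen with earlier results of these data known. All p53 targets are named; of the wider lists, those with a peak in all 4 lists and the 3 strongest per list. The counting steps were tested on simulated data. Alternatives covered the window, the threshold, the list length, the overlap, the nearest gene and the replicate that gives the strength. Scripts ran under Python 3.11.15 with pandas 2.3.3, numpy 2.4.6, matplotlib 3.10.9 and scipy 1.17.1.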

Additional observations from a re-analysis of the deposited data

How the results depend on the processing

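Of 38 alternative values of the 7 main counts that could move, 30 stayed within 1.5 times the reported one. Left out are the HMGB2 count under a limit on the SON IDR and the 6-day count at the length of its own list, the shortest, which cannot change. With a global IDR of at most 0.05, 4 p53 targets had a SON peak at 3 days and 0 at 6 days. Of the 9 untreated peaks left at the targets, 5 were found again at 3 days and 0 at 6 days. This limit kept 41.8% of all lines at 3 days and 16.0% at 6 days. Among the stronger 50% of each list the counts were 5 targets at 3 days and 2 at 6 days, and 3 of 8 untreated peaks were found at 6 days. The share of all untreated peaks found again under these limits is not given here. With the lists all shortened to their top 5583 peaks, 5 targets had a SON peak at 3 days and 5 in untreated cells, so the higher count at 3 days did not hold. The targets gained at 3 days, BTG2 and ZMAT3, have peaks among the weakest of that list. A window of 10 kb gave 8 targets in untreated cells and 8 at 3 days. The share of all protein-coding genes is not given here for that window, nor for the gene span alone used below. No paired analysis was possible because each group has 1 list, and no replicate of a group could be left out. For the 55 other p53 targets, an IDR of at most 0.05 gave 18 at 3 days and 0 at 6 days, the stronger 50% of each list gave 21, 5 and 9 (3 days, 6 days, HMGB2), lists of equal length 18 untreated and 21 at 3 days, and the span alone 9 at 6 days and 12 for HMGB2. Of the 26 alternative counts that could move, the other 17 stayed within 1.5 times. The unknown depth of the libraries limits every count.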
